A study of Mus musculus with 8 samples.

Results

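The histone genes of the mouse were followed here across 8 livers. A probe of the deposited value table was taken as a member when the number in its identifier was the NCBI Gene ID of a mouse gene whose current RefSeq symbol names a histone and which encodes one; the H2 genes of the major histocompatibility complex are not histones and were left out. The rule found 51 probes for 50 genes among the 24048 probes of the table, from 103 histone coding genes in RefSeq, and it used no measured value. Of the 51 probes, 44 belong to 43 replication-dependent genes, 4 to the variant genes H2az1, H3f3a, H3f3b and H1f10, and 3 to the germline-type genes H2ac1, H2al1m and H2al3. By protein family there were 2 H1, 14 H2A, 13 H2B, 11 H3 and 11 H4 probes, with H3c7 measured by 2 probes.

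The livers came from male mice at 23 weeks of age. A group of 4 mice carried a Gpx3 transgene, which codes for a secreted glutathione peroxidase that reduces peroxides in plasma, and the other group was 4 B6/DBA wildtype mice. All 8 animals ate chow with 4% fat up to 11 weeks of age and chow with 6% fat from then on. Which promoter drives the transgene is not stated in the labels. In the sample titles, transgenic animals 1 to 3 share a stem, transgenic animal 4 has another, and all wildtype animals share a further one, while the last letters of the titles recur in both groups. What stems and letters stand for is not stated, so neither is treated as a batch in the main fit. The part of the stems in any result was not tested, and a fit with the letters as a block was added later.

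Histones are the small basic proteins around which DNA is wound in nucleosomes: H2A, H2B, H3 and H4 form the core and H1 binds the linker. Replication-dependent histone genes lie in clusters, have no introns and are expressed mainly in S phase, and their mRNAs end in a stem-loop instead of a poly(A) tail. Variant histones such as H2A.Z, made from H2az1, and the replacement form of H3, made from H3f3a and H3f3b, are produced through the whole cell cycle from polyadenylated mRNAs and enter chromatin outside replication. Adult liver is mostly composed of hepatocytes that divide rarely. The labels name a cDNA kit without its primer, and how well mRNAs without a poly(A) tail were labelled was not tested.

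Values are background-subtracted bead intensities in the units of the scanner. Signals under 16 units were set to 16, log2 4, before any fold change, and a probe was kept for testing when its mean log2 signal was above the lower quartile over probes, which is that same floor; 14759 of the 24048 probes and 41 of the 51 histone probes were kept. Array medians lay between 11.0 and 14.2 units, and 33.1% to 35.3% of the probes of each array were below 0. The 3 hepatocyte markers that were kept summed to 63479 to 71007 units in the transgenic and 58517 to 63119 units in the wildtype livers, so the defining markers of the labelled tissue were bright on every array. The sum was higher in every transgenic liver, but the groups overlapped for each single marker. By mean, 2 markers were higher and 1 lower in the transgenic group, and none passed (smallest limma adjusted p = 0.690). In bulk liver, fewer cells of a type and less RNA per cell cannot be told apart.

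Among replication-dependent genes, 27 of 44 probes (61.4%) were above 16 units on all 8 arrays, and 7 were at or under 16 on every array. Of all 24048 probes, 8890 (37.0%) were above 16 units on all arrays. The 43 replication-dependent genes measured lie on chromosome 13 (36 genes), chromosome 3 (5 genes), chromosome 11 and chromosome 6 (1 gene each). Replication-dependent H2A and H2B probes were most often above the floor, with 8 of 10 and 9 of 13 above it on all 8 arrays, against 3 of 9 replication-dependent H3 probes and 7 of 11 H4 probes. The brightest histone probes were H2B probes: H2bc22, H2bc14, H2bc11 and H2bc7 reached 5679.5, 5306, 4091 and 5377 units in at least 1 liver. Each value belongs to its own probe, and levels are not set against each other between probes as amounts of mRNA. All 3 germline-type probes were at or close to the floor, as was H1f3, and the variant H1f10 read below 0 on all 8 arrays.

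**Figure D1:**
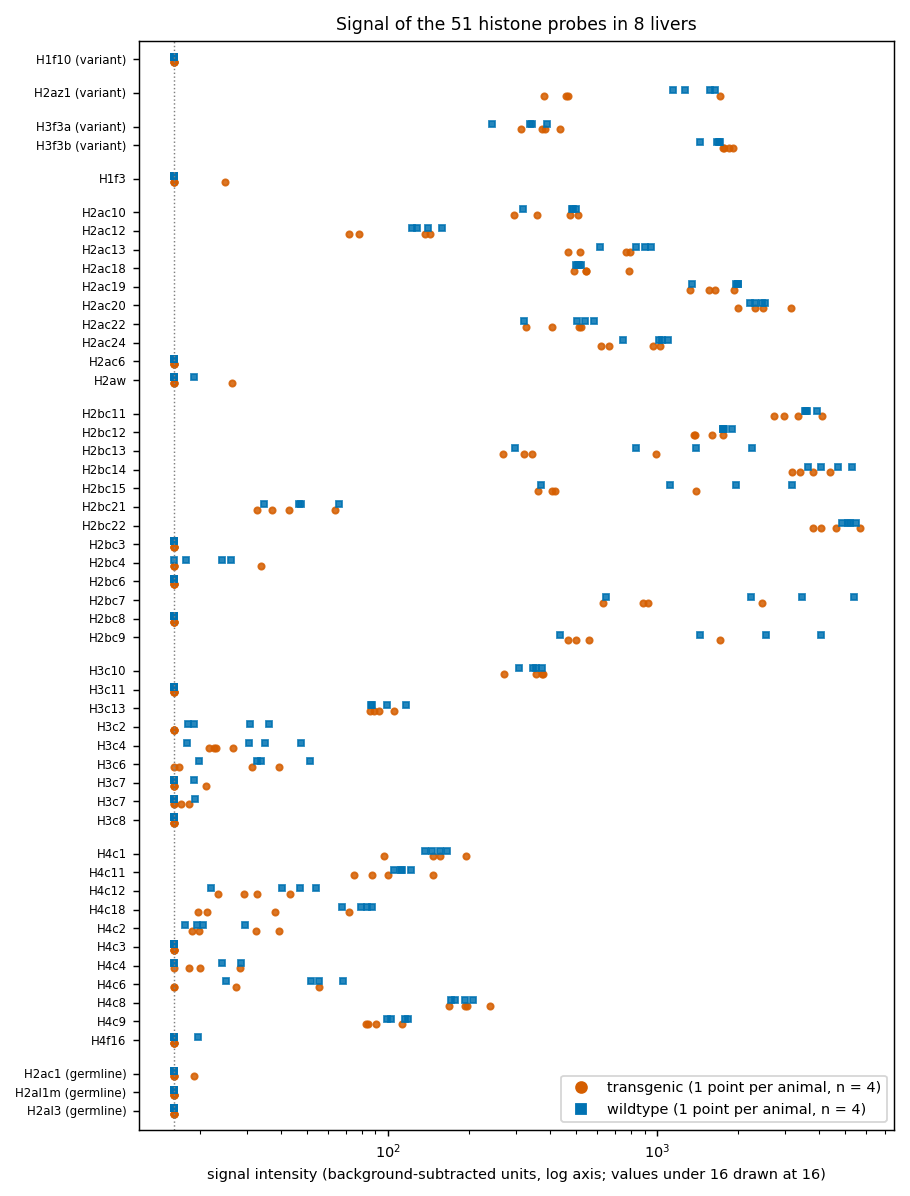
Signal of the 51 histone probes (rows) in background-subtracted intensity units on a log axis, 1 point per animal, transgenic as circles and wildtype as squares, n = 4 each; values under 16 are drawn at 16 (dotted line). The points of H2az1 and of H2bc7, H2bc9, H2bc13 and H2bc15 spread far wider than those of the other bright probes.

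No histone probe passed the test between transgenic and wildtype livers. With limma and Benjamini-Hochberg adjustment over 14759 probes, 0 of 41 histone probes were under an adjusted p of 0.05 (smallest 0.606), beside 0% of all probes tested (smallest 0.0550). At an unadjusted limma p under 0.05, 4 of 41 histone probes were lower in the transgenic livers (H4c18, H3c2, H2az1 and H2bc12; 3.59% of all probes) and 0 were higher (3.23% of all probes); in either direction this was 6.82% of all probes. The values of the groups did not overlap for 1 histone probe that was higher in every transgenic liver, H3f3b (1.73% of all probes), and 1 that was lower in every one, H3c2 (1.83% of all probes), against 3.56% of all probes in either direction. All 4 transgenic values of H3c2 were under 16 units and set to it, so the filter kept this probe only through its wildtype values. Its place in both counts depends on that floor and is not read as a group difference. In sign, 29 of the 37 kept replication-dependent probes had a lower mean in the transgenic group (78.4%) and 8 a higher one, with a median log2 difference of -0.17; of all 14759 probes, 53.3% had a lower mean and the median was -0.02. Probes of near-identical genes that read one another are not independent members of such a count.

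**Figure D2:**
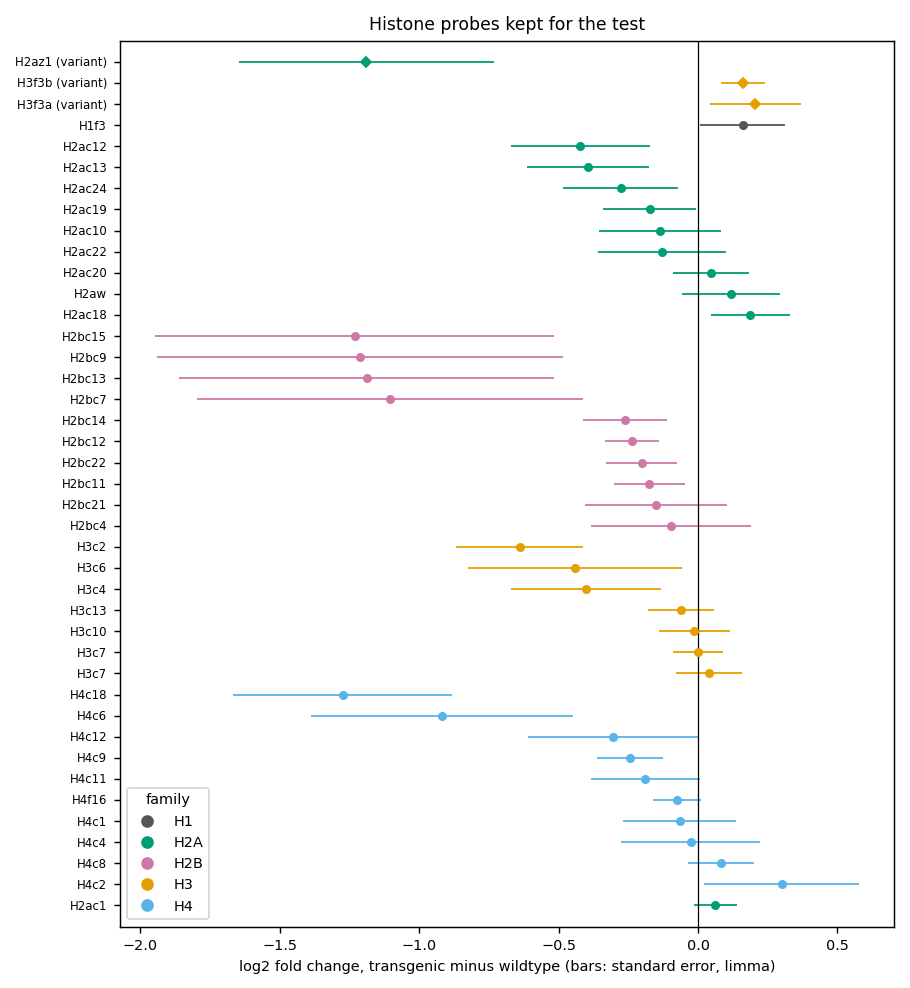
Log2 fold change, transgenic minus wildtype, of the 41 histone probes kept for the test, with the standard error of the limma fit as a bar; colours give the protein family and diamonds the variant genes. All 10 H2B probes lie left of 0, as do 53.3% of all kept probes, and H2B probes may read one another. H2az1, H4c18, H4c6 and a group of 4 H2B probes lie farthest out, with wide bars.

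The 3 variant probes above the floor showed different animal orders. H2az1 encodes H2A.Z, the H2A variant found at promoters of active and poised genes. H2az1 read 382, 459, 465 and 1712 units in transgenic animals 1 to 4 and 1148, 1270.0, 1640.1 and 1579 units in wildtype animals 1 to 4. Transgenic animals 1 to 3 were below every wildtype animal, while transgenic animal 4 was the highest of all 8. The group means were 754 ± 639 and 1409 ± 238 units (SD, n = 4 each), a log2 difference of -1.19 ± 0.46 (SE, limma) that did not pass the test (adjusted p = 0.698; two-sided exact permutation p = 0.143).

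Whether H2az1 passed depended on transgenic animal 4. Without that animal, H2az1 was 3.22-fold lower in the transgenic livers (log2 -1.68 ± 0.16, limma adjusted p = 0.0467), and it was the only histone probe under 0.05 in that fit, in which 7 of 14555 probes (0.0481%) passed. Each animal was left out in turn, and this fit is singled out because animal 4 was the high one. Its p therefore describes how the result depends on that animal and is not a test of the group difference. The split of animals seen in H2az1 was counted over all probes as a description, not a test, since it was read off H2az1 itself. Transgenic animals 1 to 3 were the 3 lowest of 8 for 504 of 14759 kept probes (3.41%). A gap of at least 2-fold between those animals and the next one was found for 6 (0.0407%). H4c18, H4c9 and H2az1 were the histone probes of the wider group (3 of 41), and H2az1 was the only histone probe with the 2-fold gap, at 2.47-fold. The 3 low animals are those that share a title stem, whose meaning is not stated and whose part was not tested.

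The H3 replacement genes showed no such split. H3f3a read 312, 374, 383 and 436 units in transgenic animals 1 to 4 and 343, 389, 339 and 244 units in wildtype animals 1 to 4; the groups overlapped. H3f3b read 1849, 1920.3, 1766 and 1759 units in transgenic animals 1 to 4 and 1674, 1714, 1703 and 1448 units in wildtype animals 1 to 4, so that every transgenic liver was above every wildtype liver, by a small margin. Log2 differences were 0.21 ± 0.16 for H3f3a and 0.16 ± 0.08 for H3f3b (SE; limma adjusted p = 0.809 and 0.771). For H3f3b the two-sided exact permutation p, not adjusted for the number of probes, was 0.0286, the least possible with 4 animals a group, and the groups overlapped once array medians were aligned.

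The H2B genes fell into sets that differed in how they varied between animals. Promoter sequences, from RefSeq tables of build GRCm38.p6, are shown for the 4 genes with the widest spread, for H2bc14, which has the same 4 low livers in a smaller range and holds the octamer, and for H2az1, to show what the genes share and where they differ upstream of the start. The stretches are the 150 bases before the gene's start on its own strand, except that for the divergent genes H2bc13 and H2ac13 the 228 bases between their starts are printed on the plus strand, with H2ac13 read rightwards. Capitals mark CCAAT, ATTTGCAT and ATTTGAAT on either strand (ATTGG is CCAAT on the other strand), searched as exact letters. CCAAT is the letter sequence bound by NF-Y, ATTTGCAT is the octamer bound by OCT1, and ATTTGAAT is a form of it with 1 letter changed; no 2 capital runs printed here overlap.
H2bc7, chr13:23574208-23574357, minus strand: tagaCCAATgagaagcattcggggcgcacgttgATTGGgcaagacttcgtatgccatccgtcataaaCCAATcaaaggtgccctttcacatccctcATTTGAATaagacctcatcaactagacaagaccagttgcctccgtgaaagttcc
H2bc9, chr13:23543445-23543594, minus strand: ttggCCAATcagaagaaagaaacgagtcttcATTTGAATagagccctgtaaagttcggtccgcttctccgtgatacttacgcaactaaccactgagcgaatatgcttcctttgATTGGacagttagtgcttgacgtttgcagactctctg
H2bc15, chr13:21753926-21754075, plus strand: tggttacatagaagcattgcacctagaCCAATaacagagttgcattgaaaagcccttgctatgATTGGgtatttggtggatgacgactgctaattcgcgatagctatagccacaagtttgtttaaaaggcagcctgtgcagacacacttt
H2bc13 to H2ac13, chr13:21716184-21716411, plus strand: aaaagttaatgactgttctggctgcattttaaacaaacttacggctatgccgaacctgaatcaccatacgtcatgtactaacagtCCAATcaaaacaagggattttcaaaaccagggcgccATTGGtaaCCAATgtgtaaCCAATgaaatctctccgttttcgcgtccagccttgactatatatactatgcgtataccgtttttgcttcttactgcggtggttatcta
H2bc14, chr13:21721894-21722043, plus strand: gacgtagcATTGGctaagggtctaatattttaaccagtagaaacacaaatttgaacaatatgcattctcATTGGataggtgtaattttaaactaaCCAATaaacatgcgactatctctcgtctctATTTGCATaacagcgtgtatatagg
H2az1, chr3:137864337-137864486, plus strand: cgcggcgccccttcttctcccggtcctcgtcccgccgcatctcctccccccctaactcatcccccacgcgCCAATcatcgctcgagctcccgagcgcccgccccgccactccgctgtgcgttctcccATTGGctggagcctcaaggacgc

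Promoter windows of 300 bases, from 250 before to 50 after the start, matched 47 of the 50 histone genes. Every one of the 12 windows of replication-dependent H2B genes and the 10 of H2A genes held CCAAT, as did the 7 of replication-dependent H3 genes, against 3 of 11 for H4 genes and 37.4% of all 32851 promoter windows. ATTTGCAT was in 5 of 12 H2B and 4 of 10 H2A windows and in no replication-dependent H3 or H4 window, against 1.74% of all windows; of the variant H3 genes, H3f3b held it and H3f3a did not. ATTTGAAT was in 6 of 12 H2B and 3 of 10 H2A windows, against 1.25% of all. TATAAA was in 7 of 11 H4 windows, against 13.6% of all. The motifs did not divide the H2B genes as the signals below did: H2bc7 and H2bc9 held ATTTGAAT, but so did H2bc11 and H2bc22, and H2bc13 and H2bc15 held neither octamer form. A match is a run of letters, and its absence from a window says nothing of any factor.

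H2bc7, H2bc9, H2bc13 and H2bc15, all core H2B genes of chromosome 13, varied together from animal to animal. H2bc7 read 923, 886, 628 and 2457 units in transgenic animals 1 to 4 and 3468, 5377, 649 and 2225 units in wildtype animals 1 to 4. H2bc9 read 499, 559, 469 and 1710.1 units in the transgenic and 2534, 4059, 436 and 1439 units in the wildtype animals, in the same order. Transgenic animals 1 to 3 and wildtype animal 3 were the 4 low livers for both probes, wildtype animals 1 and 2 the highest, and transgenic animal 4 and wildtype animal 4 lay between. H2bc13 read 321, 342, 268 and 993 units in the transgenic and 1401, 2258, 298 and 837 units in the wildtype animals. H2bc15 read 408, 416, 363 and 1389.9 units in the transgenic and 1968, 3182, 372 and 1117 units in the wildtype animals. The same 4 livers were low again for H2bc13 and H2bc15.

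The ratio of highest to lowest liver was 8.57 for H2bc7, 9.32 for H2bc9, 8.41 for H2bc13 and 8.77 for H2bc15, and the groups overlapped for each. Log2 differences between groups were -1.10 ± 0.69, -1.21 ± 0.73, -1.19 ± 0.67 and -1.23 ± 0.72 in that order (SE, limma), and the adjusted p of H2bc7 was 0.791. Without transgenic animal 4 they were -1.51, -1.65, -1.61 and -1.69, with limma adjusted p between 0.547 and 0.591. Leaving out wildtype animal 3 gave -1.71, -1.84, -1.74 and -1.82, and leaving out wildtype animal 2 gave -0.69, -0.76, -0.77 and -0.79. RefSeq lists H2bc7, H2bc13 and H2bc15 as synonyms of one another, together with H2bc11, and H2B coding sequences are close to identical, so these probes may share target; the probe sequences were not used here and reading across genes was not tested. H2bc11, from the same synonym group, did not follow: it read 4091, 2719, 2973 and 3342 units in the transgenic and 3543, 3919, 3616 and 3568 units in the wildtype animals.

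The split of animals in these H2B probes was found outside the histones too. It was read off those H2B probes, so the counts that follow are a description and not a test. Transgenic animals 1 to 3 and wildtype animal 3 were the 4 lowest livers for 562 of 14759 kept probes (3.81%) and for 7 of 41 histone probes (17.1%), namely H2ac19, H2bc7, H2bc9, H2bc13, H2bc14, H2bc15 and H4c18. With a gap of at least 2-fold there were 30 such probes (0.203%): the 4 H2B probes and 26 others, 9 of which could be named and lie on 7 chromosomes. Of those 26, 21 had the further order seen in the H2B probes, in which wildtype animal 2 was highest, then wildtype animal 1, transgenic animal 4 and wildtype animal 4. An example, chosen after its values were seen, is Rpl7a, a ribosomal protein gene, with 360.4, 569.6, 573 and 1575 units in transgenic animals 1 to 4 and 2194, 3865, 463 and 1195 units in wildtype animals 1 to 4. What these probes have in common was not tested.

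**Figure D3:**
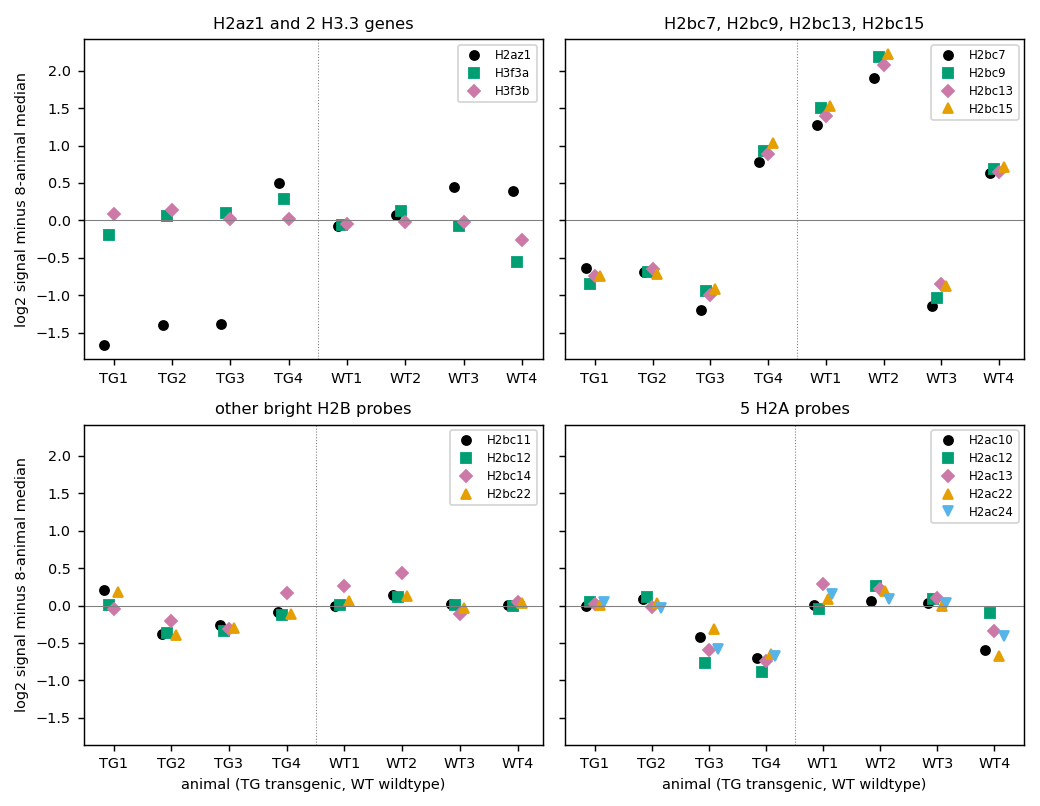
Log2 signal minus its 8-animal median for each animal (TG transgenic, WT wildtype) in 4 sets of histone probes. H2az1 is low in transgenic animals 1 to 3, H2bc7, H2bc9, H2bc13 and H2bc15 are low in those and in wildtype animal 3, and 5 H2A probes are low in transgenic animals 3 and 4 and wildtype animal 4.

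The other bright H2B probes varied less than H2bc7, H2bc9, H2bc13 and H2bc15: the SD of log2 signal over the 8 animals was 0.20, 0.17, 0.25 and 0.20 for H2bc11, H2bc12, H2bc14 and H2bc22, against 1.18 to 1.26, and each was still above the median of probes of like signal. H2bc12 read 1759, 1369, 1389 and 1604 units in the transgenic and 1761, 1898, 1767 and 1756 units in the wildtype animals, a log2 difference of -0.24 ± 0.10 (SE, limma adjusted p = 0.707). H2bc22 read 5679.5, 3806, 4078.5 and 4636.5 units in the transgenic and 5228, 5463, 4879 and 5141 units in the wildtype animals. Transgenic animals 2 and 3 were the lowest for H2bc11, H2bc12 and H2bc22. Transgenic animal 1 was inside the wildtype range for H2bc12 and the highest of all 8 animals for H2bc11 and H2bc22. H2bc14 read 3787.5, 3392.5, 3162.5 and 4396 units in the transgenic and 4719, 5306, 3624 and 4059.9 units in the wildtype animals. All 10 kept H2B probes had a lower mean in the transgenic group, with a median log2 difference of -0.25, beside 53.3% with a lower mean among all kept probes. H2B probes that read one another are not independent members of this count. H2bc4 changed sign with a floor of 32, and H2bc21 when wildtype animal 1 was left out. H2bc3, H2bc6 and H2bc8 were at or under the floor on every array.

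A set of 5 replication-dependent H2A probes was low in the same 3 livers. H2ac13 read 791, 765, 518 and 468 units in the transgenic and 949, 905, 833 and 613 units in the wildtype animals. H2ac24 read 1022, 963, 661 and 617 units in the transgenic and 1096, 1047, 1014 and 745 units in the wildtype animals. For both, transgenic animals 3 and 4 and wildtype animal 4 were the 3 lowest, and the groups overlapped. The same 3 animals were lowest for H2ac10, H2ac12 and H2ac22. That makes 5 of 41 histone probes (12.2%) against 139 of 14759 kept probes (0.942%), and none of the 139 had a gap of 2-fold. The split was read off these H2A probes, so the shares are a description and not a test. Log2 differences between groups in these 5 ran from -0.42 ± 0.25 for H2ac12 to -0.13 for H2ac22, and none passed. These genes too are close to identical in sequence, so the 5 probes cannot be taken as 5 independent readings. Whether they read one another was not tested.

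The remaining H2A probes went their own ways. H2ac18 read 784, 546, 547 and 493 units in the transgenic and 502, 512, 510.1 and 524 units in the wildtype animals, so that transgenic animal 1 alone stood above the rest. H2ac20 read 3145, 2476, 1999.8 and 2314 units in the transgenic and 2222, 2455, 2514 and 2315 units in the wildtype animals, with transgenic animal 1 again highest. H2ac19 read 1645, 1555, 1329 and 1931 units in the transgenic and 1967, 2005.5, 1352 and 1992 units in the wildtype animals. Its low livers were those of the H2B probes above, in a range of less than 2-fold. Log2 differences were 0.19, 0.05 and -0.17 for H2ac18, H2ac20 and H2ac19. H2aw was at the floor in 6 animals and H2ac6 in all.

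Pairs of genes that share a promoter did not share their animal order. H2ac13 and H2bc13 start 228 bases apart on opposite strands of chromosome 13, in the stretch printed above, yet H2bc13 was low in transgenic animals 1 to 3 and wildtype animal 3 while H2ac13 was low in transgenic animals 3 and 4 and wildtype animal 4. H2ac12 and H2bc12 start 177 bases apart, and H2ac22 and H2bc22 239 bases apart. H2ac12 was lowest in transgenic animals 3 and 4 and H2bc12 in transgenic animals 2 and 3; H2ac22 was lowest in wildtype animal 4, at 321 units, an animal in which H2bc22 was at 5141. Since H2B and H2A probes may each read several genes, a pair's difference was not tested as a difference between its 2 genes.

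**Figure D4:**
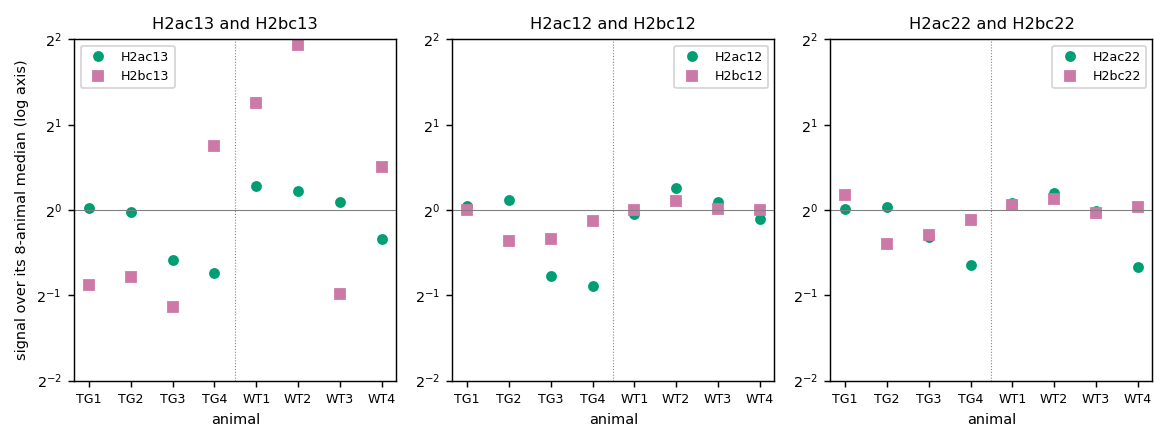
Signal of each gene of 3 divergent H2A and H2B pairs over its own 8-animal median, by animal, on a log axis. In the H2ac13 and H2bc13 panel the 2 genes are low in different animals.

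All 11 H4 probes are of replication-dependent genes, and 10 were kept. H4c18 read 21.3, 38.2, 19.8 and 71.8 units in transgenic animals 1 to 4 and 87.4, 84.0, 67.5 and 79.7 units in wildtype animals 1 to 4. Transgenic animals 1 to 3 were below every wildtype animal, as for H2az1. Transgenic animal 4 was inside the wildtype range for H4c18, whereas for H2az1 it was above that range. The log2 difference was -1.27 ± 0.39 (SE, limma adjusted p = 0.606; two-sided exact permutation p = 0.0571) and -1.65 ± 0.24 without transgenic animal 4 (adjusted p = 0.161), and it shrank to -0.43 after normexp. H4c6 read 3.0, 27.4, 13.5 and 55.5 units in the transgenic and 55.7, 68.2, 52.0 and 25.1 units in the wildtype animals, so its difference of -0.92 ± 0.47 rests on 2 animals at the floor and was -0.30 after normexp. H4c9 read 84.3, 82.7, 90.4 and 112.5 units in the transgenic and 99.3, 102.4, 118.9 and 115.4 units in the wildtype animals, a log2 difference of -0.24 ± 0.12 (limma adjusted p = 0.767). The groups overlapped for each of these. H4c1, H4c8 and H4c11 ranged over 96.5 to 194.5, 169.5 to 238.8 and 74.6 to 146.9 units, with differences of -0.07, 0.08 and -0.19. Of 10 kept H4 probes, 8 had a lower and 2 a higher mean in the transgenic group, beside 53.3% with a lower mean among all kept probes.

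Among the 9 replication-dependent H3 probes, only H3c10, H3c13 and H3c4 were above 16 units in every liver. H3c10 read 270.1, 375, 378 and 355 units in the transgenic and 346, 373, 355 and 307.5 units in the wildtype animals, with a log2 difference of -0.01. H3c13 lay between 85.6 and 117 units, with a difference of -0.06. H3c2 read 12.3, 10.9, 3.9 and 14.7 units in the transgenic and 18.1, 36.3, 19.1 and 30.8 units in the wildtype animals: every transgenic liver was under the floor of 16 and every wildtype liver above it. Its log2 difference of -0.64 ± 0.23 (SE, limma adjusted p = 0.663; two-sided exact permutation p = 0.0286) depends on where the floor is set (-0.05 with a floor of 32, -0.21 after normexp), and the groups overlapped with a floor of 32 and after normexp. The 2 probes of H3c7 were close to the floor, with differences of 0.04 and 0.00.

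Most histone probes varied more between animals than the median probe of like signal. The median SD of log2 signal over the 8 animals was 0.32 for replication-dependent probes, 0.40 for H2B, 0.32 for H2A, 0.33 for H4 and 0.17 for H3, against 0.24 for all kept probes. Compared with probes in the same 1-unit bin of mean log2 signal, 11 of 41 histone probes were above the 90th percentile of SD and 30 above the median. They included 4 of 10 H2B, 3 of 9 replication-dependent H2A, 2 of 10 H4, 1 of 7 replication-dependent H3 and 1 of 3 variant probes. Over the 30 histone probes above the floor on all arrays, the median deviation per animal was lowest in transgenic animals 2 and 3, at -0.25 on the log2 scale in each, and highest in wildtype animal 2, at 0.21. Transgenic animal 3 was the lowest liver for 8 of these 30 probes, and wildtype animal 2 the highest for 9.

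**Figure D5:**
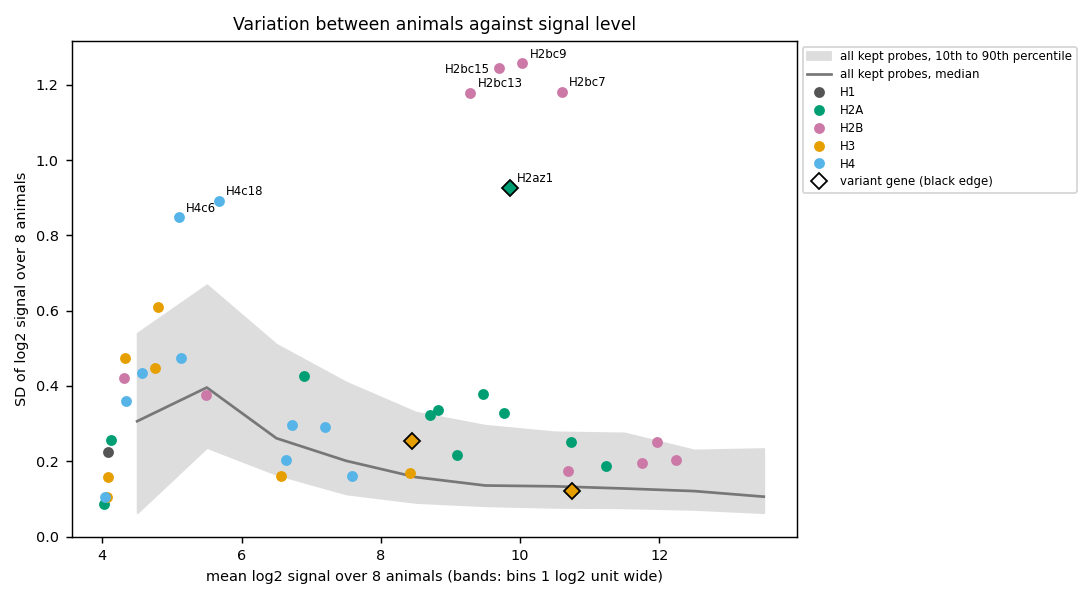
SD of log2 signal over the 8 animals against mean log2 signal for the 41 kept histone probes; the grey band spans the 10th to 90th percentile of all kept probes in 1-unit bins and the line is their median. H2bc7, H2bc9, H2bc13, H2bc15 and H2az1 lie far above the band at their signal level.

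Genes that act on histones or follow S phase gave no passing difference. Of 22 genes for histone mRNA processing and transcription, 11 were kept, with 3 higher and 8 lower means and a median log2 difference of -0.06; Slbp, which binds the stem-loop, and Hinfp, which activates H4 genes, were at or under the floor on all arrays. The smallest p in that list belonged to Upf1, a helicase of histone mRNA decay (-0.19), Ncbp2, a cap-binding subunit (-0.18), and Snrpg, a core snRNP protein (-0.07). Of 36 histone chaperone and deposition genes, 11 were kept, with 8 higher and 3 lower means and a median of 0.15. They included Supt16, a FACT subunit that handles H2A and H2B (0.33, limma adjusted p = 0.776), Nasp, an H3 and H4 chaperone (0.15), and Hira, which deposits the H3 replacement form (0.30, and -0.08 on its other probe). Of 40 replication and S phase genes, 10 were kept, with 4 higher and 6 lower means. Rrm2, the regulatory subunit of ribonucleotide reductase, read 39.1, 51.6, 57.6 and 24.9 units in the transgenic and 18.1, 25.8, 15 and 24.7 units in the wildtype animals (0.99 ± 0.29, SE, limma adjusted p = 0.592; 0.27 after normexp). Tk1, a thymidine kinase of S phase, had means of 393 ± 55 and 306 ± 54.9 units (0.37), and Rfc3, a subunit of the clamp loader, 50.05 ± 15.3 and 71.7 ± 13.7 units (-0.55; SD, n = 4 each). Cenpa, the centromeric form of H3, had a difference of 0.10.

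Markers of other liver and blood cells were read alongside. The 2 kept erythroid markers summed to 9183 to 10340.0 units in the transgenic and 10909 to 23916 units in the wildtype livers, and the groups did not overlap for Hba-a1, an alpha globin gene (9758 ± 534 and 18309.9 ± 5859 units, SD, n = 4 each, limma adjusted p = 0.592). Its highest transgenic value was 10257 and its lowest wildtype value 10780.5 units. The groups overlapped for Car1, with wildtype animal 3 lowest of all at 43.5 units. Of all kept probes, 1.83% had non-overlapping groups with lower transgenic values, a share that applies to Lrat below too. The 4 kept endothelial markers summed to 3517 to 4294 and 3746 to 4501 units, most of it from Clec4g, and all 4 had a lower mean in the transgenic group (median log2 difference -0.40). Pecam1 differed by -1.04 and Emcn by -0.48 (limma adjusted p = 0.781 and 0.697). Emcn, a sialomucin of endothelial cells, read 83.9, 91.9, 93.2 and 141.7 units in the transgenic and 158.8, 126.1, 122.1 and 156.5 units in the wildtype animals. Transgenic animals 1 to 3 were lowest for Emcn, as for H2az1, but not for the other kept endothelial markers, Pecam1, Egfl7 and Clec4g. The 5 kept macrophage markers summed to 541.6 to 954.7 and 561 to 962 units, and the 3 kept neutrophil markers to 25.7 to 78.4 and 27.4 to 80.1 units, with Mpo at the floor. Of 5 kept stellate cell markers 1 had a higher and 4 a lower mean; the groups did not overlap for Lrat, which esterifies retinol (228 to 323 and 363 to 395 units, log2 -0.46, limma adjusted p = 0.592). Spp1, the 1 kept cholangiocyte marker, read 168 to 255 and 179 to 247 units, with Krt19 at the floor. The 1 kept lymphocyte marker read 3.9 to 26.4 units, with Ptprc at the floor. Their part in the histone differences was not tested.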

How the data were processed

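Liver RNA of 8 mice was hybridised to Illumina Mouse Ref-8 bead arrays; 100 ng of total RNA was labelled, per the labels' protocols. The deposited values are linear signal intensities that can fall below 0, exported by the authors from BeadStudio 1.5.1.3, per the submitters' processing notes; another table, whose 64 value columns could not be tied to animals, was not used. Intensities under 16 were set to 16 and log2 was taken, with no further normalization. Probes with a mean log2 above the lower quartile (4) entered a limma fit (version 3.58.1, under R 4.3.3) of transgenic against wildtype with moderated variances and Benjamini-Hochberg adjustment over 14759 probes. Single values were also tested with two-sided exact permutation tests. Of 9523 probe numbers read as gene IDs, 8884 were in RefSeq.

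Any kept histone probe could be named, and of each other gene list the up to 3 genes of smallest p and those whose groups did not overlap, by the brightest kept probe. The members and lists were chosen with earlier results of these data known. In a simulation on 14759 probes with 4 animals a group, 200 probes were altered by 1.5-fold to 8-fold. They were drawn only from probes whose wildtype mean was well above the floor. Some kept histone probes, such as H3c2 and H4c6, do not reach that level. The fit found 51.5% of those altered 1.5-fold, and this share rose to 78.5% at 2-fold and 94.6% at 4-fold. In the measured data 0 probes passed, so these shares do not give the chance of finding a histone change here. H4c18, H2az1, H2bc7, H2bc9, H2bc13 and H2bc15 differed by more than 2-fold and had limma adjusted p of 0.606 to 0.791. Alternatives were the floor, the probe filter, normexp with an offset of 50, quantile normalization, aligned medians, a trended and robust eBayes fit, leaving out each animal and, added later, a block of title letters. The number of arrays limits the precision.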

Additional observations from a re-analysis of the deposited data

Results flagged for a closer look

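In 89 groups of 4 animals with fewer than 3 animals at the floor, 7 held 1 animal that stood apart from the other 3 by Dixon's criterion, and chance gives about 1 in 20. All 7 were groups of histone probes, but so were 82 of all 102 groups tested, including those with 3 or more animals at the floor. Near-identical genes are not independent groups. Transgenic animal 4 stood above the other transgenic animals for H2az1 (1711.8 units against 381.6 to 465.1), H2bc9 (1710.1 against 468.7 to 558.7) and H2bc15 (1389.9 against 362.8 to 416.3). In the wildtype group, animal 4 stood below the others for H2ac10 (317.7 units against 482.4 to 498.3) and H3f3b (1448.0 against 1674.0 to 1714.0), animal 3 below them for H2ac19 (1351.8 against 1967.0 to 2005.5), and animal 2 above them for H2bc12 (1897.7 against 1755.6 to 1766.9). In 9 further groups the other 3 animals were set to the floor of 16, so that any value above it stands apart by construction and nothing can be read from it. In transgenic animals these were H1f3 (24.9 units), H2ac1 (19.0), H2aw (26.3), H2bc4 (33.7) and 1 H3c7 probe (21.2). In wildtype animals they were H2aw (19.0), the H3c7 probes (19.0 and 19.3) and H4f16 (19.7).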

How the results depend on the processing

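Over all probes, the count past an adjusted p of 0.05 was 0, and it was 3 after normexp, 1 after quantile normalization, 1 with array medians aligned, 2 with a trended and robust fit, and 0 to 7 when 1 animal was left out (7 without transgenic animal 4). The count of histone probes past it was 0 to 1 when 1 animal was left out, the 1 being H2az1 without transgenic animal 4. Histone probes whose groups did not overlap numbered 2, and 1 with a floor of 32, 1 after normexp, 4 after quantile normalization and 1 with medians aligned. The number was 1 when only probes above 16 on all arrays were kept. It was 2 to 6 when 1 animal was left out (6 without transgenic animal 1 or 4, 5 without wildtype animal 4, 4 without wildtype animal 3). With 1 animal fewer, any probe reaches non-overlap more easily. The share over all probes was not counted in these settings, so the counts are not a result about histones. The median of the replication-dependent probes stayed below 0 throughout, from -0.20 to -0.11 over the other settings and -0.28 to -0.13 when 1 animal was left out. The H2az1 difference was -1.19 to -1.06 over the other settings (adjusted p 0.517 to 1.0) and -1.68 to -0.96 when 1 animal was left out. Small differences changed sign: H2ac1 to -0.00996 after normexp, H2bc4 to 0.0187 with a floor of 32, H3c10 to 0.0241 after quantile normalization and 0.0138 with medians aligned, H4c4 to 0.00100 with medians aligned, and the H3c7 probes to -0.38 with a floor of 8, -0.10 after normexp and -0.00416 after quantile normalization. Leaving out 1 animal gave -0.29 to 0.0115 for H2ac10, -0.0745 to 0.14 for H2ac20, -0.32 to 0.00869 for H2ac22, -0.0620 to 0.18 for H2aw, -0.34 to 0.00514 for H2bc21, -0.37 to 0.0164 for H2bc4, -0.0677 to 0.10 for H3c10, -0.12 to 0.0303 for H3c13, -0.0620 to 0.10 and -0.0385 to 0.0683 for the H3c7 probes, -0.21 to 0.13 for H4c1, -0.19 to 0.13 for H4c4 and -0.00838 to 0.16 for H4c8. The cause of these changes was not tested. The replicate numbers were given in accession order and pair nothing, but the last letters of the titles recur in both groups, and a fit with them as a replicate block was added after seeing the data. Deviations of animals with the same letters correlated between -0.0324 and 0.0458 over 8890 probes, so the letters were not taken as pairs. With this block, 0 probes and 0 histone probes passed, the replication-dependent median was -0.24, H2az1 was at -1.19 (limma adjusted p = 0.818), 1 H3c7 probe changed sign to -0.0177 and H4c4 to 0.0496. Probes near the floor, and probes that may read several near-identical histone genes, limit what single values show.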
